A study of Arabidopsis thaliana with 36 samples.

Results

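Plant mitochondria hold, beside the respiratory chain that makes ATP, a second route for electrons that pumps no protons. It was followed here in grafted Arabidopsis thaliana hypocotyls through 9 loci, the type II NAD(P)H dehydrogenase genes NDB2 (AT4G05020), NDB3 (AT4G21490), NDB4 (AT2G20800), NDA1 (AT1G07180) and NDA2 (AT2G29990), the alternative oxidase genes AOX1A (AT3G22370), AOX1D (AT1G32350) and AOX2 (AT5G64210), and the mitochondrial stress gene UPOX (AT2G21640). The members were taken by locus from a count table of 33341 loci, and all 9 had a row. Of these, 7 passed the filter on low counts, as did 19476 loci in all, while NDB3 and AOX2 did not. The loci were chosen by name, with their CPM values and fold changes in these libraries already known, in particular the rise of NDB4 in grafted Col-0. The Col-0 values of graft against intact tissue are therefore given as a description, without a p. This holds for these loci and for the genes set beside them. Where genes are counted as higher or lower in Col-0 grafts, the count uses an adjusted p under 0.05 and is a description too. The p-values printed for scion against rootstock and for the mutants do not allow for the choice of loci.

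NDB proteins sit on the outer face of the inner mitochondrial membrane and oxidise NAD(P)H of the cytosol, while NDA proteins sit on its inner face and oxidise NADH of the matrix. Both pass electrons to ubiquinone, and alternative oxidase then takes them from ubiquinol to oxygen, so that complexes I, III and IV are bypassed. AOX1A and NDB2 are textbook stress-responsive genes of this route, induced together when the mitochondrion is inhibited, and the NDA1 transcript is known to respond to light. UPOX encodes a mitochondrial protein named for its response to oxidative stress.

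Polyadenylated RNA was sequenced from 12 groups of 3 libraries, which the series calls biological replicates. The plants were 7 days old, grown in short days, and every plant had lost a cotyledon, the intact ones included. Grafted plants had also been cut through the hypocotyl, and the parts of different plants joined. The intact sample was 1 mm of hypocotyl, the scion 0.5 mm above and the rootstock 0.5 mm below the junction, all labelled 24 h after grafting. The genotypes were the wild type Col-0, a mutant labelled dof quadruple, whose lesions the labels do not list, and the double mutants erf114,115 and anac071,096. These transcription factor genes were mutated in the whole plant, and whether a scion and its rootstock were of the same genotype is given only through 1 genotype label per library.

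Library totals lay between 19.5 M and 30.5 M counts, with a median of 23.8 M. Col-0 rootstock replicate 1 stood apart, with 2514 loci counted in no other library, against at most 34 in any other. ERF115 stood at 0.882 and 0.987 CPM (the count divided by the TMM-scaled library total in M) in erf114,115 scions and rootstocks, against 63.9 and 28.6 in Col-0, and ANAC096 at 6.34 and 6.09 CPM in anac071,096, against 33.2 and 51.6. DOF6 had 0 counts in dof quadruple intact and scion tissue, against 1.08 and 2.19 CPM in Col-0, whereas HCA2, another DOF gene, was higher in the mutant scion (82.5 CPM) than in Col-0 (23.6 CPM). Of 3 root hair marker genes no library held more than traces (0 to 3 counts per gene and tissue over 12 libraries). The meristem gene STM reached 8.72 CPM in intact libraries, 14.9 CPM among the scions and 0.934 CPM among the rootstocks. Of the other meristem genes, CLV3 was at 0 in every library. WUS did not keep the order of STM, with 0 counts over the 12 intact libraries, 2 over the scions and 5 over the rootstocks. It reached at most 0.250 CPM in a library. Summed group means of 3 photosynthesis genes lay at 18288 to 23884 CPM for intact hypocotyls, at 3395 to 3991 CPM for scions and at 10417 to 13423 CPM for rootstocks.

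Promoter sequence was read for these genes because a short element, CTTG followed by 5 bases of any kind and then by CAAG or CACG, is known as the mitochondrial dysfunction motif, bound by NAC factors that signal from mitochondrion to nucleus. The 150 bases before the annotated gene start are shown for NDB2, NDB4, NDA1 and UPOX, 5′ to 3′ on the gene's strand, from the RefSeq assembly TAIR10.1. Capitals mark matches to that motif or to the G-box CACGTG.
NDB2 (chr4:2572277-2572426, + strand): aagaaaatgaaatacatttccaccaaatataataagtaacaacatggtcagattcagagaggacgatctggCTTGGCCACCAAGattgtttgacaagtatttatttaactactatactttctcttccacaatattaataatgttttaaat
NDB4 (chr2:8955832-8955981, - strand): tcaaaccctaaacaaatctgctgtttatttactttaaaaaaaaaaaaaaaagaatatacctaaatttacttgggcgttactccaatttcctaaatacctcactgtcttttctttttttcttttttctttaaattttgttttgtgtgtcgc
NDA1 (chr1:2203954-2204103, + strand): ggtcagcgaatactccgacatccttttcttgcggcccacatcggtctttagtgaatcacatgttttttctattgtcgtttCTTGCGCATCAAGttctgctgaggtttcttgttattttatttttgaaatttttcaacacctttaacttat
UPOX (chr2:9254228-9254377, + strand): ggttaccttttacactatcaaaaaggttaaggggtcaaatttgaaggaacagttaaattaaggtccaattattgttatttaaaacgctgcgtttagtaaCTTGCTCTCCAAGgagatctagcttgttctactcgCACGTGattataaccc

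Searched on both strands of the 250 bases before each gene, the CAAG form lay from -79 to -67 in NDB2, from -70 to -58 in NDA1 and from -51 to -39 in UPOX, counted from the gene start. NDB3 held the CACG form on the minus strand (-126 to -114), and AOX2 held 2 G-boxes. No match to either form or to the G-box was found in these windows of NDB4, NDA2, AOX1A or AOX1D, and no member matched the evening element AAAATATCT. Over 27443 protein-coding genes, 0.74% of such windows held the CAAG form, 0.466% the CACG form, 6.49% the G-box and 2.36% the evening element. NDB2, which stood higher in grafts, and NDA1, which stood lower, both held the CAAG form, and NDB4 held neither. A match of letters is a description of the window and shows no binding, and bases further upstream were not searched.

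NDB4, an external NADH dehydrogenase gene on chromosome 2 with 2076 exon bases, was silent in intact hypocotyls and strongly expressed after grafting. Col-0 intact libraries held 0 counts in all 3 replicates, which allows at most 0.0416 CPM over the group (3 counts, for counting error only). Its level was 58.8, 61.9 and 60.8 CPM in the Col-0 scion libraries and 8.00, 9.997 and 9.85 CPM in the rootstock libraries. Against that floor the scion was at least 1456-fold and the rootstock at least 224-fold higher.

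The mutants gave the same picture for NDB4. Intact tissue held 2 counts over the 3 dof quadruple libraries, 2 in erf114,115 and 1 in anac071,096. The scion libraries held 36.5, 47.3 and 33.2 CPM in dof quadruple, 40.9, 33.9 and 45.0 in erf114,115, and 44.1, 54.8 and 43.9 in anac071,096. Rootstock libraries held 4.50, 5.19 and 3.69 CPM, 3.42, 2.32 and 7.90 CPM, and 5.68, 9.08 and 8.29 CPM in the same order of genotypes. In no mutant did the 3 tissues overlap. The ratio of scion to intact tissue was 1541 (counting interval 426.4 to 12734) in dof quadruple, 1476 (408.2 to 12189) in erf114,115 and 3125 (560.6 to 123478) in anac071,096. No p is given for NDB4 against intact tissue, since it passed the filter on low counts only through the graft groups. In bulk tissue, a change in the number of cells that express a gene and a change in RNA per cell cannot be told apart.

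NDB4 was also higher above the junction than below it in every genotype. The log2 difference of scion and rootstock was 2.70 ± 0.32 (SE) in Col-0 (adjusted p 7.4e-08, from edgeR's quasi-likelihood test with Benjamini and Hochberg's correction across 19476 loci, used throughout), 3.12 ± 0.33 in dof quadruple (2.1e-08), 3.14 ± 0.33 in erf114,115 (9.1e-09) and 2.63 ± 0.32 in anac071,096 (1.2e-07). The Col-0 p rests on libraries whose NDB4 values were known when the locus was chosen, and it does not allow for that choice. No scion library of NDB4 came below 33.2 CPM and no rootstock library above 9.997 CPM.

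**Figure D1:**
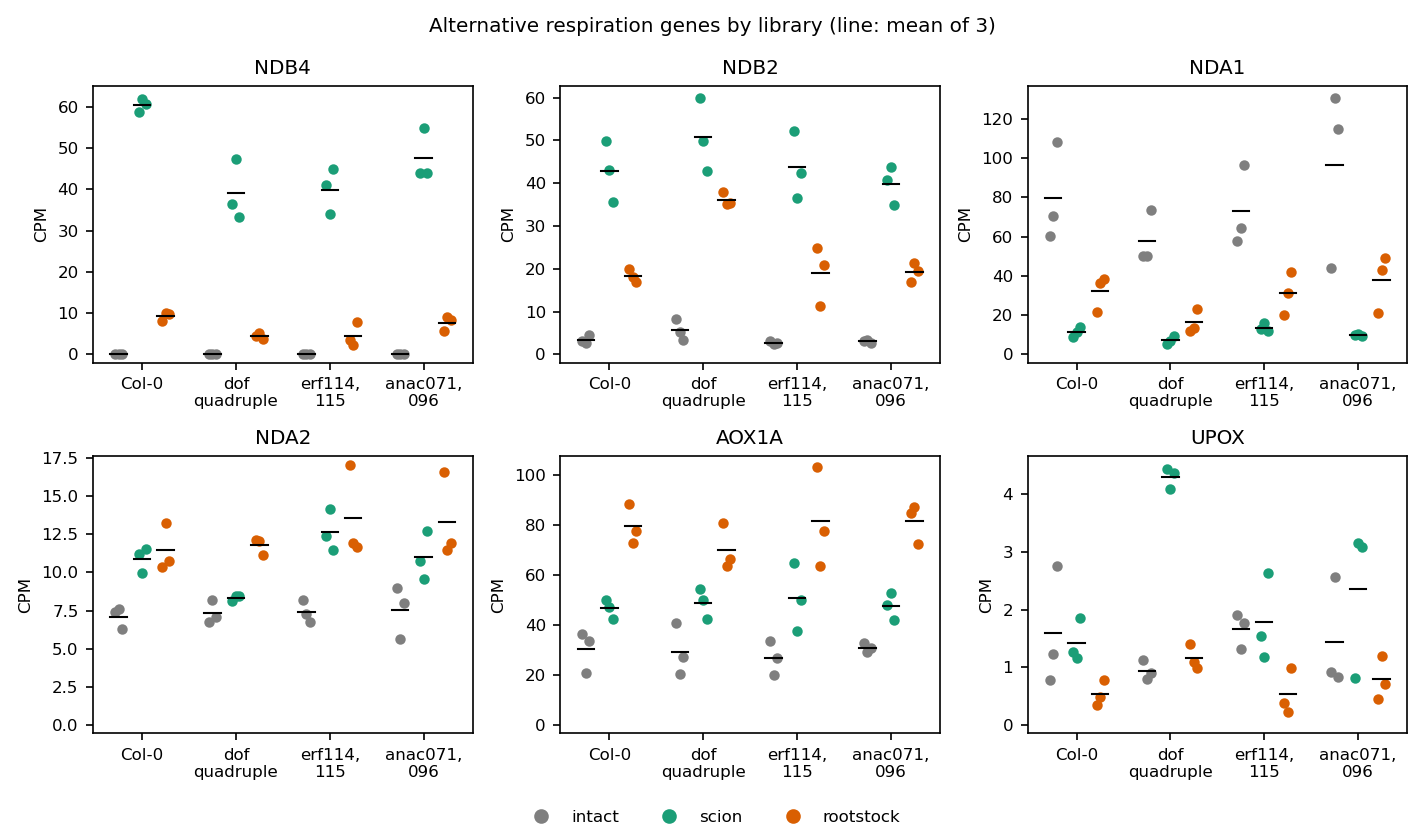
Level in CPM (y axes, linear) of 6 genes in each of 36 libraries, by genotype (x axes) and tissue (colours), with a line at the mean of 3. NDB4 and NDB2 stand highest in scions, NDA1 in intact tissue and AOX1A in rootstocks, and UPOX stands highest in dof quadruple scions at 4.31 CPM.

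NDB2, the stress-responsive external NADH dehydrogenase gene, had a low level in intact tissue and was higher on both sides of the graft. Col-0 libraries held 3.22, 2.59 and 4.63 CPM intact, 49.9, 43.1 and 35.5 in scions and 19.9, 18.1 and 17.0 in rootstocks, and these 3 tissues did not overlap. The Col-0 log2 difference from intact tissue was 3.63 ± 0.28 in scions and 2.40 ± 0.27 in rootstocks. Scion levels of NDB2 in the mutants ran from 42.9 to 59.8 CPM in dof quadruple, from 36.4 to 52.3 in erf114,115 and from 34.9 to 43.8 in anac071,096. It rose in mutant scions by 3.18 ± 0.27 (adjusted p 5.9e-11), 3.99 ± 0.28 (1.7e-12) and 3.71 ± 0.28 (5.6e-12) in this order, and in mutant rootstocks by 2.68 ± 0.26 (2.0e-09), 2.80 ± 0.27 (8.5e-10) and 2.66 ± 0.27 (2.5e-09).

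The scion held more NDB2 than the rootstock in 3 of 4 genotypes, by 1.23 ± 0.25 in Col-0 (adjusted p 0.00017), 1.20 ± 0.25 in erf114,115 (0.00021) and 1.04 ± 0.25 in anac071,096 (0.00091). In dof quadruple the difference was 0.50 ± 0.24 (adjusted p 0.11) although the libraries did not overlap, and it passed with upper-quartile scaling (0.61, adjusted p 0.041). The dof quadruple rootstock libraries, at 37.8, 35.0 and 35.4 CPM, stood above every other rootstock library, the next being 25.0 CPM in erf114,115.

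NDB3 was at or near 0 throughout: no library held more than 1 count, and 28 of 36 held none. NDB1, the remaining family gene, which is known to oxidise NADPH, went the other way from NDB2 and NDB4. Its level was 28.7 to 33.7 CPM in Col-0 intact libraries, 18.7 to 21.4 in scions and 8.60 to 11.2 in rootstocks. NDB1 fell in mutant rootstocks, with log2 differences of -0.93 in dof quadruple (adjusted p 1.1e-06), -1.40 in erf114,115 (4.8e-10) and -1.42 in anac071,096 (4.3e-10). In the scions of these mutants the differences were -0.50 (0.0014), -0.34 (0.027) and -0.48 (0.0026). The erf114,115 scion call was lost without intact replicate 2 (-0.31, adjusted p 0.078), intact replicate 3 (-0.34, 0.058) or scion replicate 3 (-0.31, 0.087). NDB1 overlaps the locus AT4G28230 in the annotation, and whether the counting used strand is not given in the sources used here.

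NDA1, an internal NADH dehydrogenase gene, was the only member with a lower mean than intact tissue in all 8 graft groups. Col-0 libraries held 60.4, 70.3 and 108 CPM intact, 9.04, 11.2 and 13.8 in scions and 21.6, 36.3 and 38.4 in rootstocks, with no overlap between tissues. The Col-0 log2 difference was -2.81 ± 0.37 in scions and -1.31 ± 0.35 in rootstocks. NDA1 fell in mutant scions, with log2 differences of -3.00 ± 0.38 in dof quadruple (adjusted p 1.1e-07), -2.42 ± 0.37 in erf114,115 (2.2e-06) and -3.29 ± 0.38 in anac071,096 (2.4e-08). It fell in mutant rootstocks as well, with differences of -1.83 (0.00015), -1.23 (0.0052) and -1.35 (0.0027). The anac071,096 intact libraries spread from 43.8 to 130.4 CPM and overlapped its rootstock libraries, which reached 49.3 CPM.

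Scions held less NDA1 than rootstocks in all 4 genotypes, with log2 differences of -1.50 (adjusted p 0.0011) in Col-0, -1.17 (0.011) in dof quadruple, -1.19 (0.0070) in erf114,115 and -1.94 (6.9e-05) in anac071,096. The dof quadruple difference lost its call without scion replicate 1 (-1.01, adjusted p 0.058) or rootstock replicate 3 (-0.82, 0.10), and the erf114,115 difference without rootstock replicate 3 (-0.91, 0.053). RBCS1A, LHCB1.1 and LHCB2.1, the 3 photosynthesis genes whose sums are given above, ran in the order of tissues that NDA1 did. Their part in the NDA1 result was not tested.

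NDA2, the other internal dehydrogenase gene, moved opposite to NDA1 and by less. Its Col-0 levels were 7.39, 7.62 and 6.29 CPM intact, 11.2, 9.97 and 11.5 in scions and 10.3, 13.3 and 10.7 in rootstocks, both graft tissues lying above intact. NDA2 rose in the rootstocks of dof quadruple by 0.68 ± 0.18 (adjusted p 0.0034), of erf114,115 by 0.87 ± 0.18 (0.00023) and of anac071,096 by 0.82 ± 0.18 (0.00056). It rose in scions of erf114,115 by 0.77 ± 0.18 (0.00064) and of anac071,096 by 0.54 ± 0.18 (0.014). The dof quadruple scion did not pass (0.18 ± 0.18, adjusted p 0.42), at 8.09, 8.44 and 8.48 CPM against 6.77, 8.20 and 7.10 intact.
The anac071,096 scion call of NDA2 was lost without intact replicate 2 (0.37, adjusted p 0.12) or scion replicate 3 (0.42, 0.087), and without the count filter (0.47, 0.068). In dof quadruple the scion was below the rootstock by a log2 difference of -0.50 (adjusted p 0.028), which was lost with upper-quartile scaling (-0.38, 0.090) and when any of 5 of the 6 libraries was left out (adjusted p 0.057 to 0.078).

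NDC1, a type II dehydrogenase gene beside the members whose protein is known from chloroplasts and mitochondria, stood at 21.7 ± 3.38 CPM in Col-0 intact tissue, 14.4 ± 0.817 in scions and 19.0 ± 1.62 in rootstocks. NDC1 fell in scions of dof quadruple (log2 difference -0.68 ± 0.16, adjusted p 0.00081) and erf114,115 (-0.58, 0.0035). In anac071,096 scions it did not pass (-0.38, 0.051), but did with DESeq2 (-0.44, 0.020), the replicate block (-0.38, 0.045), either other scaling (0.046 and 0.025) or no count filter (0.049).

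AOX1A supplied nearly all alternative oxidase RNA and was highest below the junction. Col-0 libraries held 36.5, 21.0 and 33.5 CPM intact, 50.3, 47.5 and 42.5 in scions and 88.5, 72.8 and 77.9 in rootstocks, and the tissues did not overlap. The Col-0 log2 difference from intact tissue was 0.63 ± 0.23 in scions and 1.40 ± 0.23 in rootstocks. In mutant rootstocks AOX1A rose by 1.26 ± 0.23 in dof quadruple (adjusted p 5.6e-05), 1.61 ± 0.23 in erf114,115 (1.2e-06) and 1.40 ± 0.23 in anac071,096 (1.2e-05). In mutant scions it rose by 0.74 ± 0.23 (0.0072), 0.93 ± 0.23 (0.0011) and 0.62 ± 0.23 (0.024) in that order.
The dof quadruple scion call of AOX1A was lost without intact replicate 2 (0.53, adjusted p 0.072). The anac071,096 scion call was lost without intact replicate 2 (0.58, 0.072), intact replicate 3 (0.61, 0.058), scion replicate 1 (0.62, 0.051) or scion replicate 2 (0.54, 0.086), and without the count filter (0.55, 0.051).

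The side of the graft separated AOX1A from the NDB genes, since AOX1A was lower in scions than in rootstocks. The log2 difference was -0.77 ± 0.23 in Col-0 (adjusted p 0.0065) and -0.78 ± 0.23 in anac071,096 (0.0061). It was -0.68 ± 0.23 in erf114,115 (0.015), where the libraries overlapped and the call was lost without scion replicate 2 (-0.51, 0.093) or rootstock replicate 1 (-0.47, 0.12), or with upper-quartile scaling (-0.51, 0.060). In dof quadruple it was -0.52 ± 0.23 and did not pass (adjusted p 0.067).

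AOX1D, known to be induced when AOX1A is missing, stayed near the limit of detection with at most 21 counts in a library. Summed over the 12 libraries of a tissue it had 24 counts intact, 82 in scions and 144 in rootstocks. In anac071,096 it had 0 counts in 3 intact libraries and 38 in 3 rootstock libraries, at least 13.2-fold higher. The anac071,096 scion libraries held 2, 6 and 0 counts and the rootstock libraries 2, 17 and 19, which overlapped. No p is given for AOX1D between tissues, since it passed the filter on low counts mostly through rootstock libraries. Where its calls enter the counts of members below, nothing is read from them. AOX2 had 20 counts in Col-0 rootstock replicate 1, the library that stood apart, and at most 1 in each of the other 35.

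AOX1C, a family gene beside the members, was counted mainly in scions, with 62 counts over 3 libraries in Col-0, 54 in anac071,096 and 26 in erf114,115. Intact groups held 0 to 7 counts and rootstock groups 0 to 13. In dof quadruple scions AOX1C had 0 counts in all 3 libraries, at least 20.6-fold lower than in Col-0 scions. The anac071,096 scion stood above its rootstock by a ratio of 21.1 (counting interval 5.58 to 179.1). AOX1C passed the filter on low counts through the scions in which it was high, so these are given without a p. AOX1B had 0 counts in all 36 libraries.

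UPOX was low everywhere, between 0.228 and 4.44 CPM, and its highest libraries were the 3 dof quadruple scions at 4.44, 4.10 and 4.38 CPM. Intact dof quadruple libraries held 1.12, 0.801 and 0.906 CPM, and the rise was 2.19 ± 0.53 on the log2 scale (adjusted p 0.00089). Col-0 levels were 0.781, 1.22 and 2.75 CPM intact and 1.27, 1.15 and 1.86 CPM in scions, which overlapped (log2 difference -0.15 ± 0.52). Scions of erf114,115 (0.10 ± 0.51, adjusted p 0.88) and anac071,096 (0.72 ± 0.52, 0.26) did not pass. Without anac071,096 intact replicate 2 that difference was 1.42 and passed (0.047). The excess of the dof quadruple response over that of Col-0 was 2.34 ± 0.74 but did not pass over all loci (adjusted p 0.19), nor did the level in dof quadruple scions against Col-0 scions (1.59 ± 0.52, 0.18).

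UPOX was higher in scions than rootstocks in all 4 genotypes, by 1.41 ± 0.56 in Col-0 (adjusted p 0.040), 1.89 ± 0.53 in dof quadruple (0.0051), 1.74 ± 0.56 in erf114,115 (0.012) and 1.58 ± 0.54 in anac071,096 (0.018), where the libraries overlapped. The dof quadruple call held when any 1 library was left out. The others did not: the Col-0 call was lost without scion replicate 1 or 3 or rootstock replicate 1 or 2 (adjusted p 0.056 to 0.14) and without the count filter (0.059), the erf114,115 call without scion replicate 3 or rootstock replicate 1 or 2 (0.052 to 0.079) and the anac071,096 call without scion replicate 2 or 3 or rootstock replicate 1 or 3 (0.054 to 0.092). UPOX fell in erf114,115 rootstocks (log2 difference -1.63, adjusted p 0.019), a call lost without rootstock replicate 1 (0.076) or 2 (0.088). It did not pass in the rootstocks of dof quadruple (0.31 ± 0.54, 0.68) or anac071,096 (-0.86 ± 0.55, 0.23).

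**Figure D2:**
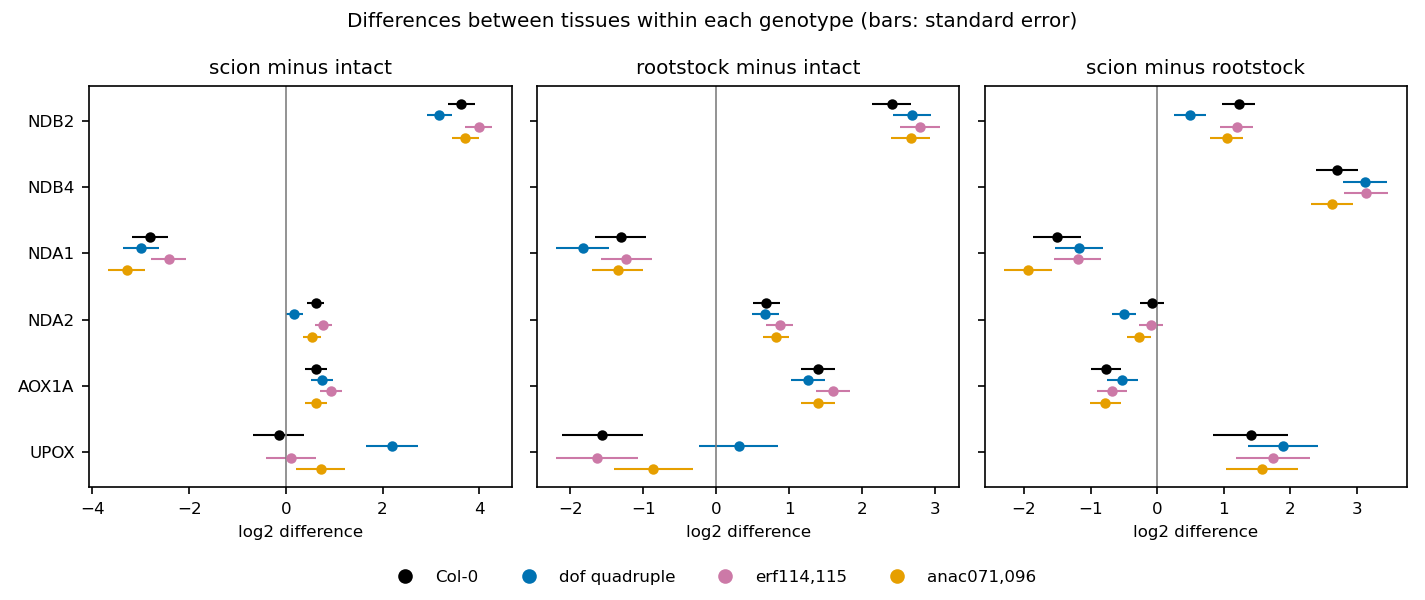
Log2 difference (x axes) of scion and intact tissue, rootstock and intact tissue, and scion and rootstock for 6 genes in 4 genotypes (colours), with standard errors as bars. NDB4 is shown for scion against rootstock only, where it lies between 2.63 and 3.14, since its intact tissue held 0 to 2 counts. NDB2 and AOX1A lie on opposite sides of 0 in the right panel.

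Counted over the 7 tested members, 4 were higher and 1 lower in the scions of each mutant than in its intact tissue. Over all tested loci the shares higher and lower there were 28.7% and 25.6% in dof quadruple, 28.7% and 21.6% in erf114,115 and 27% and 22.9% in anac071,096. The higher genes were NDB2, NDB4 and AOX1A with NDA2, or with UPOX in dof quadruple, and NDA1 was the lower one. In rootstocks 4 members were higher and 1 lower in dof quadruple (22.9% and 17.4% of all loci), 4 and 2 in erf114,115 (26.9% and 17.9%) and 5 and 1 in anac071,096 (21.7% and 16.4%). These counts hold NDB4, and in anac071,096 rootstocks AOX1D, which the filter on low counts kept through the grafts, so nothing is read from their size. Between scion and rootstock 3 were higher and 2 lower in Col-0 (23.5% and 22.7%), 2 and 2 in dof quadruple (19.7% and 20.1%), 3 and 2 in erf114,115 (23.6% and 23.1%) and 3 and 3 in anac071,096 (23.3% and 22.6%), where AOX1D was among the lower ones. Its call there was lost without any of scion replicate 1 or 3 or rootstock replicate 2 or 3, with upper-quartile scaling and without the count filter. Nothing is read from that call, since the filter kept AOX1D mostly through rootstock libraries. The medians over the 7 tested members were 1.31, 0.93 and 0.72 in the mutant scions and 1.26, 1.61 and 1.40 in the mutant rootstocks, where the medians over all loci ran from -0.01 to 0.08. These medians hold NDB4 and AOX1D too, and the loci were chosen with their fold changes known, so nothing is read from the medians either. Comparisons of 1 genotype share libraries, and those counts are not independent of one another.

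The mutants were next set against Col-0 in the same tissue, which asks whether the level of these genes depended on the mutated factors. In dof quadruple rootstocks 1 of 7 members was higher and 0 lower, beside 3.73% of all loci called in either direction and 1.64% called higher. This was NDB2, at 36.1 ± 1.53 CPM (SD, n = 3) against 18.3 ± 1.51 in Col-0, a log2 difference of 0.98 ± 0.25 (adjusted p 0.018). The NDB2 call was lost without Col-0 rootstock replicate 2 (0.97, adjusted p 0.060) or replicate 3 (0.93, 0.084) or dof quadruple rootstock replicate 1 (0.94, 0.061) or 2 (1.00, 0.054). It held without Col-0 rootstock replicate 1, the library that stood apart (1.04, 0.045).

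NDB4 lay the other way in the same rootstocks, at 4.46 ± 0.752 CPM in dof quadruple against 9.28 ± 1.11 in Col-0, with no overlap (-1.05 ± 0.32, adjusted p 0.059), and NDA1 at 16.3 ± 6.08 against 32.1 ± 9.13 CPM (-0.98 ± 0.35, 0.14). With the replicate number as a block, NDB4 (-1.04, adjusted p 0.047) and NDA1 (-0.99, 0.012) passed too, making 3 members called. The sample titles number the replicates but state no pairing. Deviations of same-numbered libraries from their group means correlated at 0.118 to 0.196 here. NDB4 passed in DESeq2 as well (-1.04, adjusted p 0.012). NDB1 was higher in dof quadruple rootstocks than in Col-0 (16.5 ± 1.93 against 9.89 ± 1.33 CPM, log2 difference 0.74 ± 0.13, adjusted p 0.00056).

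In dof quadruple scions and intact tissue no member passed, beside 1.5% and 4.59% of all loci at the adjusted threshold. At an unadjusted p under 0.05 in edgeR there were 3 and 1 members. No share of all loci is given at an unadjusted p, here or below, so nothing is read from such counts. Scion levels of NDB4 were lower in dof quadruple (39.0 ± 7.34 CPM) than in Col-0 (60.5 ± 1.59 CPM) without overlap, but the difference did not pass (-0.63 ± 0.30, adjusted p 0.73). NDB2 in intact dof quadruple tissue was 8.35, 5.24 and 3.40 CPM, overlapping Col-0 (0.70 ± 0.26, adjusted p 0.17), and passed without dof quadruple intact replicate 3 (0.96, 0.030).

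No member passed in erf114,115 against Col-0 in intact tissue, scion or rootstock (0.0308%, 0.893% and 0.38% of all loci at the adjusted threshold). At an unadjusted p under 0.05 there were 1, 0 and 1 members, and nothing is read from these counts. NDB4 again lay below Col-0, in scions (39.9 ± 5.58 CPM, log2 difference -0.60 ± 0.29, adjusted p 0.49) and rootstocks (4.55 ± 2.95 CPM, -1.03 ± 0.32, 0.21), without overlap in either. Its rootstock difference passed in DESeq2 (-1.06, adjusted p 0.038) and without erf114,115 rootstock replicate 3 (-1.70, 0.0037), the replicate at 7.90 CPM. In anac071,096 no member passed in intact tissue, scion or rootstock (0.0411%, 0.385% and 0.863% of all loci), and 0 members reached an unadjusted p under 0.05. NDB4 there was 47.6 ± 6.23 CPM in scions (-0.35 ± 0.29, adjusted p 1) and 7.68 ± 1.78 CPM in rootstocks (-0.27 ± 0.31, adjusted p 1).

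The response to grafting, each mutant's graft minus intact difference less that of Col-0, passed for no member in any of 6 tests, where 0.945% and 0.899% of all loci passed for scions and rootstocks of dof quadruple, 0.0513% and 0.0462% of erf114,115 and 0.0462% and 0.205% of anac071,096. An unadjusted p under 0.05 was reached by 1 member, UPOX, in each of both dof quadruple tests and by 0 in the others. Nothing is read from these counts either, for lack of the share of all loci at that p. In DESeq2 and with the replicate block the count of members called was 0 in these tests too. For NDB2 the difference of responses in scions was -0.45 ± 0.36 in dof quadruple, 0.36 ± 0.36 in erf114,115 and 0.08 ± 0.36 in anac071,096, and for AOX1A 0.11 ± 0.32, 0.30 ± 0.32 and -0.01 ± 0.32.

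Per kilobase of exon, the NDB family shifted from 1 gene to others. In Col-0 intact tissue NDB1 made up 89.2 ± 3.70% (SD, n = 3) of the summed CPM per kb of the 4 NDB genes and NDB2 10.8 ± 3.70%. In Col-0 scions NDB4 made up 54.9 ± 3.46%, NDB2 31.3 ± 3.87% and NDB1 13.8 ± 1.15%, and the sum was 53.2 ± 2.40 CPM per kb against 12.7 ± 0.509 intact. In Col-0 rootstocks the sum was 15.2 ± 0.378 CPM per kb, of which NDB2 was 47.1 ± 5.05%, NDB4 29.4 ± 2.85% and NDB1 23.4 ± 2.68%. The rootstock sum lay nearer to the intact sum than to the scion sum, with other genes making up most of it.

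In the mutants NDB4 took 40.2 ± 4.45% of the NDB sum in dof quadruple scions, 42.6 ± 3.33% in erf114,115 and 48.3 ± 2.1% in anac071,096. In rootstocks its share was 9.69 ± 1.71%, 15.0 ± 6.78% and 23.0 ± 2.60%. The dof quadruple rootstock had the highest mean NDB2 share of the rootstocks, 63.5 ± 2.45%. Its libraries (62.0 to 66.3%) overlapped those of erf114,115 (45.1 to 64.3%) in that share. The NDB sum in dof quadruple rootstocks, 22.2 ± 0.178 CPM per kb, was above each library of the other 3 rootstock groups, which lay between 9.82 and 17.3.

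The NDA sum fell as the NDB sum rose in scions. In Col-0 it was 40.4 ± 11.3 CPM per kb intact, 10.9 ± 1.28 in scions and 20.7 ± 4.68 in rootstocks, and the NDA1 share went from 90.4 ± 3.14% intact to 47.9 ± 5.25% in scions and 70.8 ± 5.50% in rootstocks. The AOX sum was 17.2 ± 4.68, 27.2 ± 2.22 and 45.8 ± 4.86 CPM per kb in these tissues, and AOX1A made up at least 97.4% of it in the mean of every group. No 50-base exon window of the 13 genes examined was shared with another gene of its family.

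**Figure D3:**
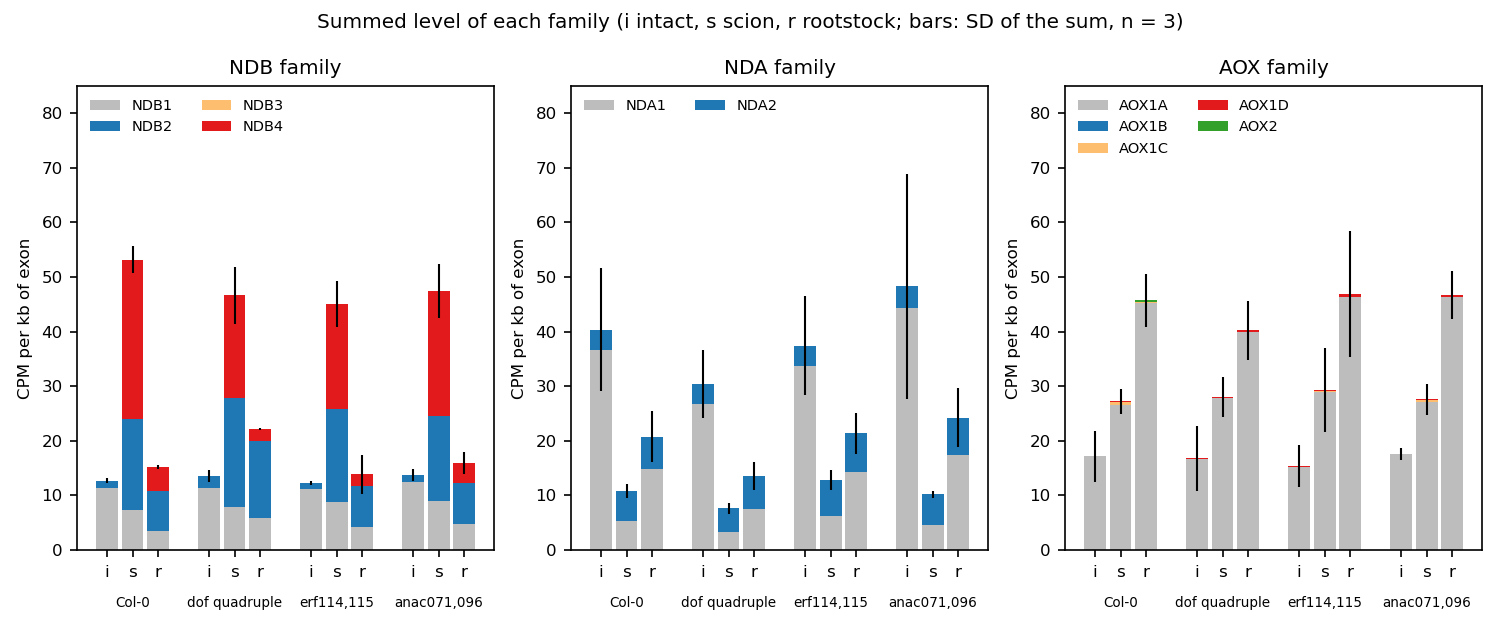
Summed level of the NDB, NDA and AOX genes in CPM per kb of exon (y axes), stacked by gene (colours), in intact tissue (i), scions (s) and rootstocks (r) of 4 genotypes, with the SD of the sum as bars (n = 3). The Col-0 NDB sum is 53.2 in scions against 12.7 intact and 15.2 in rootstocks, while the AOX sum is highest in rootstocks at 45.8.

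Ordered by mean level, tissue came before genotype for NDB4, with the 4 scion groups (39.0 to 60.5 CPM) above the 4 rootstock groups (4.46 to 9.28) and these above the 4 intact groups. Among NDB4 scions only Col-0 was separate from its neighbour below, and the other neighbours within a tissue overlapped. NDB2 kept the same order of tissues, with the dof quadruple rootstock (36.1 CPM) overlapping the anac071,096 scion above it (39.8 CPM) and separate from the next rootstock below. NDA1 ran from intact (57.9 to 96.3 CPM) through rootstock to scion (7.25 to 13.6), and the dof quadruple rootstock overlapped the highest scion group. AOX1A ran from rootstock (70.3 to 81.6 CPM) through scion (46.8 to 51.0) to intact (26.8 to 31), where the 4 genotypes of each tissue overlapped. The dof quadruple rootstock libraries, from 63.5 CPM, also overlapped the erf114,115 scion libraries, which reached 65.0 CPM. UPOX had no such order, and the dof quadruple scion was its only group separate from its neighbour.

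Many genes of the phosphorylating chain were higher in scions, and fewer in rootstocks, where most of the complex I and complex IV genes did not pass. Genes of this and the following lists are counted at an adjusted p under 0.05. The Col-0 counts against intact tissue are a description, since the lists were chosen with earlier results of these data known. In Col-0 scions 10 of 13 tested complex I genes were higher and 0 lower (median 0.77), 3 and 0 of 3 for complex II (1.38), 9 and 0 of 11 for complex III with cytochrome c (1.25), 10 and 0 of 13 for complex IV (1.06) and 7 and 0 of 8 for ATP synthase (1.21), where 29% of all loci were higher and 25.2% lower with a median of 0.01. In Col-0 rootstocks the counts were 5 of 13, 3 of 3, 7 of 11, 6 of 13 and 5 of 8 higher and 0 lower, with medians of 0.42, 1.16, 0.72, 0.60 and 0.71, where 22.6% of all loci were higher. Over the 3 mutants, 8 to 12 of 13 complex I genes and 10 or 11 of 13 complex IV genes were higher in scions. Of all loci 28.7% were higher there in dof quadruple, 28.7% in erf114,115 and 27% in anac071,096. Mutant counts of the other lists of the chain are not given. CYTC-1, a cytochrome c gene, stood at 41.0 CPM in Col-0 intact tissue and at 198 in scions (log2 difference 2.27 ± 0.29), and SDH1-1, of complex II, differed by 1.38 ± 0.17. HCC1, a gene for complex IV assembly, differed by 2.39 ± 0.24.

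**Figure D4:**
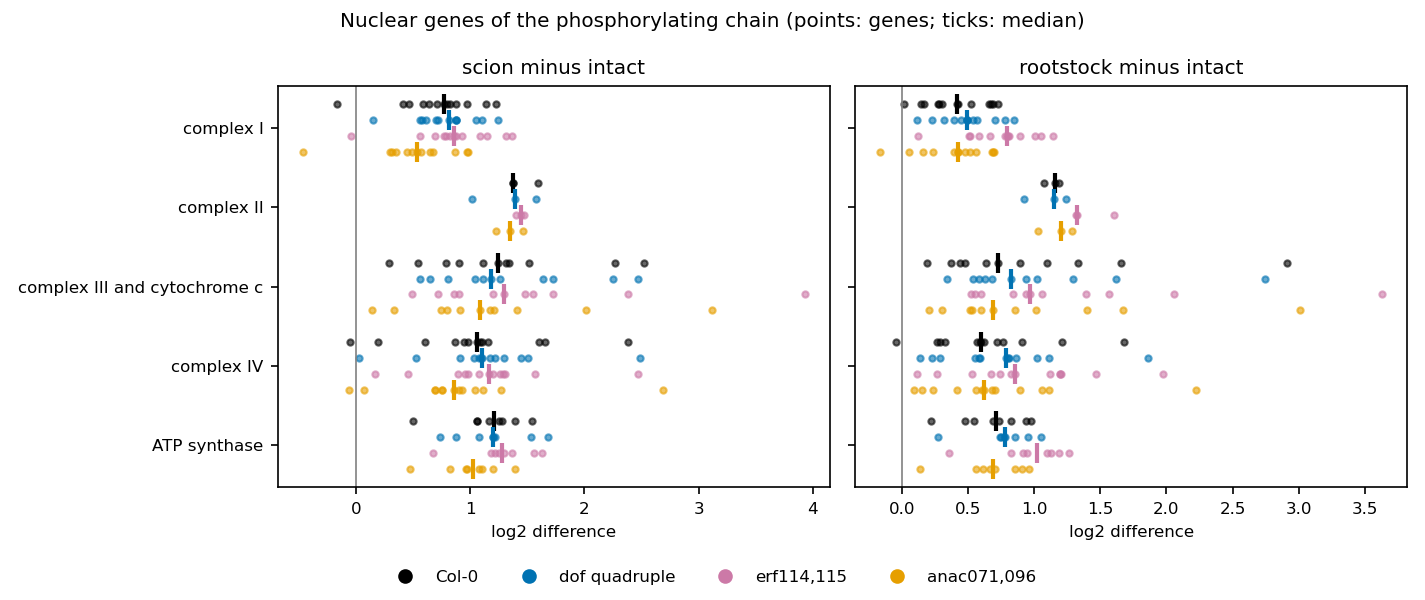
Log2 difference (x axes) from intact tissue of each tested nuclear gene (points) of complexes I to IV, cytochrome c and ATP synthase in scions and rootstocks of 4 genotypes (colours), with ticks at the median of a list. Medians of Col-0 lie between 0.77 and 1.38 in scions and between 0.42 and 1.16 in rootstocks.

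Of 10 tested genes for other dehydrogenases that feed ubiquinone, 6 were higher and 1 lower in Col-0 scions (29% and 25.2% of all loci), and 7 and 0 in Col-0 rootstocks (22.6% and 17%). Between scion and rootstock 3 were higher and 3 lower, beside 23.5% and 22.7% of all loci. PRODH1, which oxidises proline, stood at 70.6 CPM intact, 982 in scions (log2 difference 3.8 ± 0.40) and 785 in rootstocks (3.47 ± 0.40). IVDH, of branched-chain amino acid breakdown, was 48.6 CPM intact, 35.9 in scions and 469 in rootstocks, a log2 difference of scion and rootstock of -3.71 ± 0.29 (adjusted p 2.0e-11). ETFQO, which passes electrons of that pathway to ubiquinone, was also lower in scions than in rootstocks (-1.68 ± 0.25, adjusted p 3.1e-06). Of 6 uncoupling and dicarboxylate carrier genes 4 were higher in Col-0 scions and 2 in rootstocks, where 29% and 22.6% of all loci were higher. PUMP1, the main uncoupling protein gene, stood at 47.0 CPM intact, 126 in scions (1.42 ± 0.22) and 88.8 in rootstocks (0.92 ± 0.22).

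Of 6 tested mitochondrial stress genes 4 were higher and 1 lower in Col-0 scions (29% and 25.2% of all loci) and likewise in rootstocks (22.6% and 17%). OM66, of the outer mitochondrial membrane, differed from intact tissue by 2.81 ± 0.42 in scions and 3.03 ± 0.42 in rootstocks, and CRF6, a cytokinin response factor gene, by -2.40 ± 0.29 and -1.72 ± 0.28. Of 12 tested regulators of signalling from the mitochondrion, 1 was higher and 8 lower in Col-0 scions than in rootstocks, where 23.5% of all loci were higher and 22.7% lower. WRKY40, a repressor of stress genes, was 3.78 CPM in scions and 34.0 in rootstocks (log2 difference -3.16 ± 0.58, adjusted p 5.5e-05). WRKY15 was 48.9 and 138 CPM (-1.50 ± 0.23, 3.8e-06), and WRKY63 0.215 and 5.18 CPM (-4.58 ± 0.68, 5.1e-06). For scion against rootstock in dof quadruple 1 was higher and 8 lower (19.7% and 20.1% of all loci). The counts were 1 and 8 in erf114,115 (23.6% and 23.1%), and 2 and 7 in anac071,096 (23.3% and 22.6%).

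Over the 12 group means of log2 CPM, which share tissue and genotype and so are not independent, Pearson's r was 0.967 between NDB2 and NDB4, -0.956 between NDB2 and NDA1, -0.926 between NDB4 and NDA1 and 0.899 between NDA2 and AOX1A. The pairs NDB2 and AOX1A (0.685) and NDB4 and AOX1A (0.668) were less alike. Among 8392 named genes, the patterns most like NDB4 were those of RPSAb, SUB, EMB2785, HDA3 and LETM1, with r of 0.991 to 0.994. Those most like NDB2 were CDT1A, BIP1, BIP2, LOS2 and PDIL1-3 (each 0.994), and 483 genes had an r over 0.95 with NDB2. NDA1 was most like TRXF1 (0.996), BBX15, AOR, BBX14 and NdhO. AOX1A was most like VAP27-2 (0.995), AlaAT1, MPL1, UPI and FLA13, and NDA2 most like LACS6 (0.970), ACX3, AIM1, CYP706A4 and GSTZ1. The 2 low genes had no pattern partner over 0.95, the nearest being PER4 for AOX1D (0.922) and CUE1 for UPOX (0.925).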

How the data were processed

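The authors deposited 1 table of raw read counts by locus, made with fastp, HISAT2 and HTSeq on TAIR10, per the submitters' processing notes, which also name DESeq2 and give no versions or roles. The sources used here give neither the annotation release nor the strand setting. No column was left out (0). Columns were matched to samples by title. The 33341 loci were filtered with edgeR's filterByExpr at a minimum count of 10, leaving 19476, scaled by TMM and fitted in 1 robust quasi-likelihood model of 12 groups (edgeR 4.0.16, limma 3.58.1, R 4.3.3; 24 residual degrees of freedom; common biological coefficient of variation 25.8%). In all, 27 comparisons were tested, each adjusted by Benjamini-Hochberg over all tested loci, with a threshold of 0.05. A locus at 0 in a group of 3 was given a floor of 3 counts over the group; ratios to 1 to 3 counts carry exact 95% intervals. Intervals and floors cover counting error only. CPM per kb used the union of exons in RefSeq TAIR10.1.

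The members and gene lists were chosen with earlier results of these data known. Text names all members, the 4 other family genes, up to 3 genes with the smallest adjusted p of each other list, and up to 5 genes most like a member. The model was tested on simulated data. Same-numbered replicates deviated together (every pair's correlation over 0.1) in 7 of 21 comparisons of groups: the 3 within erf114,115, scion against rootstock in anac071,096, dof quadruple against Col-0 in intact tissue and rootstock, and erf114,115 against Col-0 in intact tissue. Over 63 pairs the correlation ran from -0.233 to 0.679. Alternatives were upper-quartile and RLE scaling, no count filter, a replicate block, DESeq2 1.42.0 and leaving out each library. Figures used matplotlib 3.10.9.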

Additional observations from a re-analysis of the deposited data

Results flagged for a closer look

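The response of NDB1, the family gene that is no member, differed between genotypes by an interaction term. Its fall from intact tissue to rootstock was smaller in dof quadruple (-0.93) than in Col-0 (-1.67), a difference of responses of 0.74 ± 0.18 (SE, adjusted p 0.040, edgeR's quasi-likelihood test). The libraries of dof quadruple rootstocks held 14.8, 16.1 and 18.6 CPM of NDB1 against 8.60, 9.84 and 11.2 in Col-0, and intact tissue overlapped. The call held with upper-quartile (0.78, adjusted p 0.028) and RLE scaling (0.75, 0.025), the replicate block (0.75, 0.017) and DESeq2 (0.75, 0.0014). It was lost without the count filter (0.73, adjusted p 0.14) and without Col-0 intact replicate 1 or 2, Col-0 rootstock replicate 1 or 2, dof quadruple intact replicate 1 or 3, or dof quadruple rootstock replicate 2 or 3 (0.65 to 0.76, adjusted p 0.073 to 0.16). Col-0 rootstock replicate 1 is the library that stood apart, and without it the difference was 0.65 (adjusted p 0.16).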

How the results depend on the processing

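No member or family gene changed direction while called under any alternative. The number of members called moved by more than 1.5 times in these comparisons. For anac071,096 scion against intact it was 3 without the count filter, against 5. For dof quadruple against Col-0 in rootstocks it was 3 with the replicate block and 2 in DESeq2, against 1, and 0 to 1 when a library was left out. For erf114,115 against Col-0 in rootstocks it was 1 in DESeq2, against 0, and 0 to 1 when a library was left out. Leaving out a library gave 2 to 3 in dof quadruple scion against rootstock (4 in full), 3 to 5 in the same comparison of erf114,115 (5 in full) and 0 to 1 in dof quadruple against Col-0 in intact tissue (0 in full). The causes were not tested. With the replicate block AOX1A also passed in dof quadruple scion against rootstock (-0.51, adjusted p 0.017), where same-numbered libraries did not all deviate together. Counts over all loci moved by more than 1.5 times with the block for erf114,115 against Col-0 in scions (301 against 174) and its scion response (25 against 10). DESeq2 called more loci for erf114,115 in scions (375), rootstocks (185 against 74) and both responses (65 against 10, 31 against 9), for anac071,096 in intact tissue (13 against 8), scions (151 against 75) and responses (43 against 9, 102 against 40), and for the dof quadruple responses (295 against 184, 292 against 175). Levels under 1 CPM (AOX1D, AOX1C, NDB3, AOX2, part of UPOX) rest on few counts.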
